A study of Equus caballus with 4 samples.

Results

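The genes of the neuromuscular junction examined here were those of the muscle acetylcholine receptor (*CHRNA1*, *CHRNB1*, *CHRND*, *CHRNG* and *CHRNE*), of receptor clustering (*MUSK*, *RAPSN* and *AGRN*) and of acetylcholine breakdown (*ACHE* and *BCHE*). The 10 genes were looked up by the symbol printed for each spot. That found 9 of them, each with 1 probe, which made 9 of the 24998 different names in the gene column of the files and 9 of the 43603 different probes of the array. *AGRN* carried no such symbol. Its probe was listed as LOC100066334 with the description agrin, and the RefSeq gene ID behind that name is *AGRN*, so its values are given apart from the counts.

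The cells were equine satellite cells, the stem cells of skeletal muscle, isolated from m. semitendinosus and analysed on day 3 of differentiation. The HMB group was incubated for 24 h with HMB (50 µM), which cells form from leucine, and received 3 mM H2O2 for the last 1 h. The control group received the same H2O2 without HMB, so no comparison here is with cells free of H2O2. Each of the 4 arrays with 2 channels, all on 1 slide, carried an HMB sample in Cy5 and a control sample in Cy3. Dyes were not swapped, so treatment and dye cannot be told apart. The labels number the HMB samples 1 to 4 as biological replicates, whereas every control sample is numbered 1. Per the study's methods, the cells came from young stallions and 1 primary culture was chosen for further work. The 4 arrays therefore need not stand for 4 horses, and p-values measure the spread between these arrays. In RNA from whole cultures, fewer cells of a type and less RNA per cell cannot be told apart.

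The muscle acetylcholine receptor is an ion channel in the postsynaptic membrane. Fetal and denervated muscle builds it with the gamma subunit, and innervated muscle replaces gamma with epsilon. Agrin from the nerve binds LRP4, which activates the kinase MuSK, and rapsyn then holds receptors in clusters. Acetylcholinesterase ends transmission by splitting acetylcholine in the cleft, and butyrylcholinesterase is a related enzyme of broader substrate range. Cultured myotubes make receptors and acetylcholinesterase without a nerve.

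The probes are shown because every value below rests on 1 probe of 60 bases a gene. The files place them on EquCab1 and give no exon, intron or untranslated region for any of them. Both cholinesterase probes lie in the stretch that codes for the end of the C-terminal tail of the enzymes, the part through which they bind the anchor proteins ColQ and PRiMA. The cholinesterase values below therefore cover only transcripts that contain this stretch. The *ACHE* probe lay at chrUn:230700251-230700310 and the *BCHE* probe at chrUn:178347395-178347454, both on the minus strand of the unplaced sequence. Capitals mark the bases identical in both, 35 of the 59 positions compared (59.3%), while no other of the 45 pairs among the 10 probes was above 49.2%.
ACHE: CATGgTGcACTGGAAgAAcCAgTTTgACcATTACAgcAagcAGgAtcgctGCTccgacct
BCHE: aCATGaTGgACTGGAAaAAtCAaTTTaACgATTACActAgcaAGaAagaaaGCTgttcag

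For the receptor, the fetal and adult subunit probes and those of the alpha and delta subunits are shown. *CHRND* (chr6:19641367-19642215) and *CHRNG* (chr6:19651906-19651965) were neighbours on the plus strand with 9690 bases between the probes. *CHRNE* lay at chr11:48423240-48423299, plus strand, and *CHRNA1* at chr18:41938387-41938446, minus strand. The *CHRND* coordinates spanned 849 bases, more than the probe's 60, so this probe crosses a splice junction.
CHRNG: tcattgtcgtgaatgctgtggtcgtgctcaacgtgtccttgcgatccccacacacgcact
CHRNE: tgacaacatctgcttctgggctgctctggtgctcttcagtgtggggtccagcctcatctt
CHRNA1: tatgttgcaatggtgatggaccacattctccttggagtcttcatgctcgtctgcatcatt
CHRND: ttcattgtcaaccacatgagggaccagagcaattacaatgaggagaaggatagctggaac

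The arrays had 57.6% to 60.6% of Cy3 spots and 55.2% to 61.8% of Cy5 spots well above background, and their ratios correlated at 0.837 to 0.920 across probes. No spot was saturated, and none of the spots of the 10 genes was marked as faulty. A probe was tested when at least 1 channel was well above background on all 4 arrays. It was called when limma gave an adjusted p of at most 0.05 over all 24669 tested probes and the mean FC was at least 1.3.

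Messenger RNA of most receptor subunits and of both cholinesterases was lower in HMB-treated cells. Of the 9 genes found by symbol, 8 were tested, 6 were called lower, and 0 were called higher. Of all tested probes, 28.6% were called, 16.4% as lower and 12.1% as higher. *BCHE* and *CHRNB1* passed the filter only through the control channel, where they were higher. With both channels required well above background, 4 of 6 tested genes were called lower. Of all 22652 probes tested that way, 3324 were called lower and 2546 higher, 25.9% in either direction. The median log2 ratio of HMB over control across the 8 tested genes was -0.84, with medians of -0.79, -0.89, -0.68 and -0.90 on arrays 1 to 4, beside -0.07 over all tested probes. Setting *BCHE*, whose ratio is only a bound, at that bound cannot move the median, because it stays the lowest of the 8. The median lay between *CHRNA1* (-0.85) and the dim *CHRNB1* (-0.83), and it was -0.53 with normexp. With treat, limma's test for an FC above 1.3, 5 were called lower and 0 higher, beside 11.4% of all tested probes (5.19% lower and 6.25% higher). With the methods' t-test after Benjamini-Hochberg adjustment, 6 were called lower and 0 higher, beside 20.4% (11.9% lower and 8.51% higher). *BCHE*, *ACHE* and *CHRND* had the lowest deposited ratios, an order that changed with the background correction, while *CHRNE* and *MUSK* did not pass. *RAPSN* could not be tested.

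**Figure D1:**
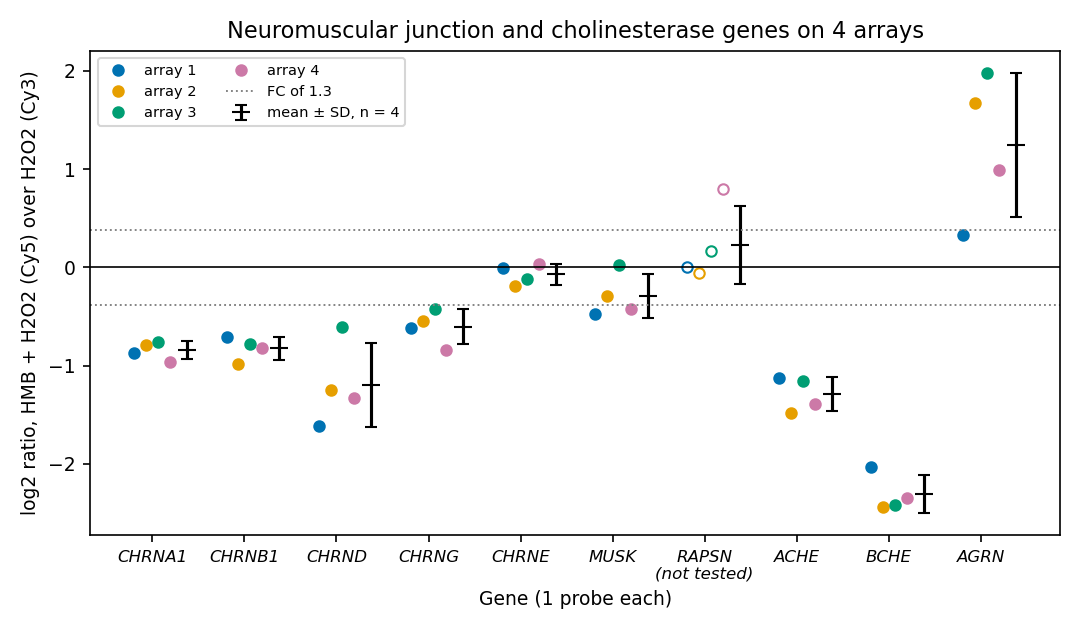
Log2 ratio of HMB + H2O2 (Cy5) over H2O2 (Cy3) for each of the 10 genes, with 1 point per array, the mean with SD (n = 4) in black and dotted lines at an FC of 1.3. Every point of *CHRNA1*, *CHRNB1*, *CHRND*, *CHRNG*, *ACHE* and *BCHE* lies under the lower dotted line, and open points mark *RAPSN*, which was not tested.

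Of the 5 receptor subunit genes, 4 were called lower, beside 16.4% of all tested probes. Among the 4 was *CHRNB1*, which passed the filter only through the control channel. *CHRNA1* encodes the alpha subunit, which carries the acetylcholine binding sites. Its processed signal was 8474, 7241, 9706 and 8502 in the control channel of arrays 1 to 4 and 4633, 4195, 5722 and 4356 in the HMB channel. All HMB signals lay below all control signals across the arrays. The share of all tested probes without such overlap was not counted, here or for the genes below, so a lack of overlap is described only. The log2 ratios were -0.87, -0.79, -0.76 and -0.96, with a mean of -0.85 ± 0.09 (SD, n = 4), an FC of 1.80 and an adjusted p of 0.000202 by limma. Of all tested probes, 3.44% had a lower ratio.

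*CHRND*, the delta subunit, varied most between arrays among the called subunits. Control signals were 737, 381, 501 and 606, and HMB signals were 241, 161, 330 and 240. The channels did not overlap. Its log2 ratios on arrays 1 to 4 were -1.61, -1.24, -0.60 and -1.33, a mean of -1.20 ± 0.43 (SD, n = 4) with an adjusted p of 0.00167 by limma. Array 3 had the smallest fall, and without it the mean was -1.40.

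*CHRNG*, the fetal gamma subunit, had control signals of 11630, 10810, 12030 and 9864 and HMB signals of 7560, 7420, 8994 and 5496, again without overlap. Ratios on the log2 scale were -0.62, -0.54, -0.42 and -0.84, with a mean of -0.61 ± 0.18 (SD, n = 4) and an FC of 1.52. The adjusted p was 0.00204 by limma. With treat the adjusted p was 0.119 and the gene was not called.

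*CHRNE*, the adult epsilon subunit, was well above background in both channels on all 4 arrays and did not pass the test. Control signals were 192, 114, 121 and 76.8, and HMB signals were 191, 99.5, 112 and 78.7, so the channels overlapped. On the log2 scale its ratios were -0.01, -0.20, -0.12 and 0.04, with a mean of -0.07 ± 0.10 (SD, n = 4) and an adjusted p of 0.416 by limma. Within each array, the *CHRNG* ratio was below the *CHRNE* ratio, by 0.30 to 0.88 on the log2 scale. The mean difference between the genes was -0.54 ± 0.27 (SD, n = 4), with p = 0.125 in a two-sided exact sign-flip test, the smallest p that 4 arrays allow, and 0.188 after adjustment over the 3 pairs of genes compared.

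*CHRNB1*, the beta subunit, was dim (chr11:49236420-49236986, plus strand). Control signals were 45.9, 58.8, 86.6 and 59.1, and HMB signals were 28.1, 29.6, 50.4 and 33.4. The control channel was well above background on all 4 arrays and the HMB channel on 3. The probe thus passed the filter only through the channel where it was high. The highest HMB signal, on array 3, lay above the lowest control signal, on array 1. The log2 ratios were -0.71, -0.99, -0.78 and -0.82, and the mean was -0.83 ± 0.12 (SD, n = 4) with an adjusted p of 0.000301 by limma. The call was lost when normexp with an offset of 50 replaced the deposited background correction (-0.20, adjusted p = 0.0602 by limma). It was also lost when no background was subtracted (-0.33, under the FC of 1.3). Both settings shrink the ratios of dim probes towards 0. Within arrays, the *CHRNA1* ratio differed from the *CHRNB1* ratio by -0.02 ± 0.17 (SD, n = 4), which ranged from -0.16 to 0.20 across arrays (two-sided exact sign-flip p = 1). That difference was -0.65 with normexp and -0.49 without background subtraction, each with an exact sign-flip p of 0.125, the smallest possible.

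**Figure D2:**
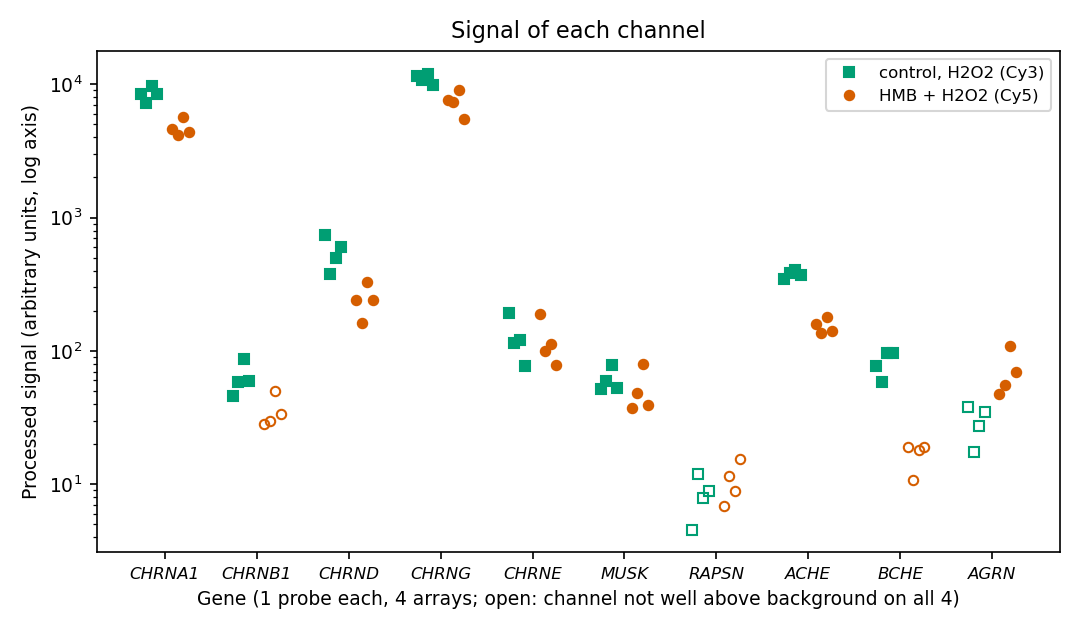
Processed signal of the control channel (squares) and the HMB channel (circles) for each gene on the 4 arrays, on a log axis in arbitrary units, with open symbols where a channel was not well above background on all 4 arrays. The HMB channel of *BCHE* lies between 10.8 and 19.0 on all arrays, and signals of different genes come from different probes and are not to be compared with each other.

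Of the clustering genes, none was called among those found by symbol. *MUSK*, the receptor kinase that starts clustering (chr25:19672279-19672338, minus strand), had control signals of 51.9, 59.4, 77.9 and 53.0 and HMB signals of 37.4, 48.5, 79.1 and 39.6. The log2 ratios were -0.47, -0.29, 0.02 and -0.42, lower on 3 of 4 arrays, with a mean of -0.29 ± 0.22 (SD, n = 4). The adjusted p of 0.0464 by limma was under the threshold, but the FC of 1.22 was not large enough for a call. Without array 3, where the gene did not fall, the mean was -0.40 and the gene was called, with an adjusted p of 0.0146 by limma.

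The probe of *RAPSN*, which encodes rapsyn (chr12:9182800-9182864, minus strand), was well above background in neither channel on any array. Its control signals were between 4.57 and 11.97 and its HMB signals between 6.92 and 15.5, so no FC is given.

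The probe of *AGRN* (chrUn:254036230-254036289, minus strand) is shown because it is named through the gene ID and is the sole one of the 10 that was called higher. Agrin is made by motor neurons and also by muscle, where the muscle forms cluster receptors poorly.
AGRN: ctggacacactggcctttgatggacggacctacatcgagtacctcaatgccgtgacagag
Control signals were 37.7, 17.3, 27.6 and 34.9, and HMB signals were 47.3, 55.3, 109 and 69.3, so every HMB signal was above every control signal. The control channel was well above background on 1 array and the HMB channel on all 4. The probe thus passed the filter only through the channel where it was high, and the separation of its channels is not independent of that filter. The log2 ratios were 0.33, 1.68, 1.98 and 0.99, with a mean of 1.24 ± 0.74 (SD, n = 4) and an adjusted p of 0.00974 by limma. The call was lost with normexp (0.15, adjusted p = 0.0804 by limma), without background subtraction (0.36, under the FC of 1.3), with treat, with the methods' t-test and without the filter on dim probes. With *AGRN* included, 7 genes were called and the median was -0.83.

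Both cholinesterase genes were called lower. *ACHE* had control signals of 348, 383, 403 and 368 and HMB signals of 160, 137, 180 and 141, which did not overlap. In log2 terms the ratios were -1.12, -1.49, -1.16 and -1.39, with a mean of -1.29 ± 0.18 (SD, n = 4), an FC of 2.45 and an adjusted p of 0.000101 by limma. Of all tested probes, 0.876% had a lower ratio. With normexp the mean was -0.74 and the gene was still called.

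*BCHE* fell further in the deposited ratios, to a level at background. Control signals were 77.4, 58.6, 96.7 and 96.5, well above background on all 4 arrays. HMB signals were 19.0, 10.8, 18.0 and 19.0, well above background on none. The probe thus passed the filter only through the channel where it was high. The dim channel gives only a bound. Against the lowest signal well above background, and with the deposited background correction, expression was nominally at least 3.36-fold lower with HMB. This bound is not strict, because a spot above that lowest signal can also miss the flag. The adjusted p was 1.07e-05 by limma. The deposited log2 ratios were -2.03, -2.44, -2.42 and -2.34, with a mean of -2.31 ± 0.19 (SD, n = 4), and rest on a channel at background. That mean was -0.46 with normexp and -0.78 without background subtraction, both smaller than the bound, and *BCHE* was called with both.

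Whether *BCHE* fell more than *ACHE* depended on the background. In the deposited ratios *ACHE* was above *BCHE* on each array, by 0.91 to 1.26, with a mean difference of 1.02 ± 0.16 (SD, n = 4), a two-sided exact sign-flip p of 0.125 and 0.188 after adjustment. With normexp (offset 50) the difference was -0.28 and without background subtraction it was -0.14, that is, in the opposite direction. Both settings shrink the ratio of a dim probe more than that of a brighter one. They therefore cannot decide which gene fell more.

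**Figure D3:**
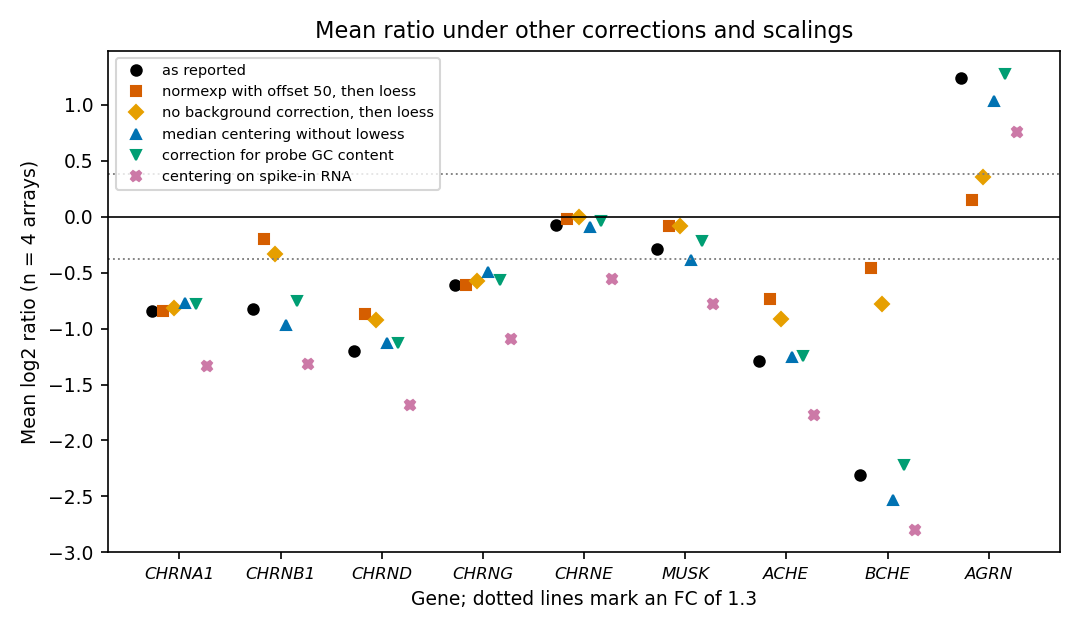
Mean log2 ratio (n = 4 arrays) of the tested genes and *AGRN* as reported (black circles) and under 5 other corrections or scalings, with dotted lines at an FC of 1.3. The normexp squares move *BCHE* from -2.31 to -0.46 and *CHRNB1* from -0.83 to -0.20, while *CHRNA1* stays at -0.85, and centering on spike-in RNA lowers every gene.

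*CHRNA1*, *CHRND* and *ACHE* were called lower in all 20 alternative analyses, and *BCHE* in all 19 that could include it. *CHRNG* was called in 19 of 20 and *CHRNB1* in 17 of 19. The scale of the arrays mattered for the genes that did not pass. Centering the arrays on spike-in RNA moved the median of all tested probes from -0.07 to -0.56 and the median of the 8 genes to -1.32. On that scale *CHRNE* (-0.56) and *MUSK* (-0.78) were called lower as well, beside 75.3% of all tested probes.

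Of 100 partner genes of the junction in 6 lists, 82 had a probe, 54 were tested, 14 were called lower and 2 higher, with a median log2 ratio of -0.11. The total share called is close to the 28.6% of all tested probes, so that total is no result about these genes as a group. Their calls were more often lower than those of all tested probes (16.4% lower and 12.1% higher). Whether that holds for the partners as a group was not tested. The agrin signalling partners had 4 genes lower of 15 tested (median -0.09). These were *DVL1* (-0.87), a Wnt signalling protein that binds MuSK, *MACF1* (-0.68 on the brightest of 5 probes, all called lower), a cytoskeletal linker, *LRP4* and *DNAJA3* (-0.45), a MuSK-binding chaperone. *DVL1* was not called with normexp (-0.31). *LRP4*, the agrin receptor, had log2 ratios of -0.96, -0.80, -0.09 and -0.79, so array 3 again had the smallest fall. Its mean was -0.66 ± 0.39 (SD, n = 4) with an adjusted p of 0.0114 by limma, and it was not called with treat, the methods' t-test, either other background setting or without the filter on dim probes. *DOK7*, the cytoplasmic activator of MuSK, had a mean of 0.12 ± 0.06 (SD, n = 4) and did not pass (adjusted p = 0.152 by limma).

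Of the genes for synaptic matrix, anchors and neuregulin receptors, 3 of 9 tested were called lower (median -0.03), beside 16.4% of all tested probes. They were *LAMA2*, *DAG1* and *SNTB1*. *LAMA2*, the laminin chain of muscle basement membrane, was at -1.12 on the brighter of its 2 probes and -0.63 on the other, both called. *DAG1* (-0.94) encodes dystroglycan, and *SNTB1* (-0.73) encodes a syntrophin of the dystrophin complex. *SNTB1* was not called with normexp (-0.27) or without background subtraction (-0.37). The cholinesterase anchors *COLQ* and *PRIMA1* were at background in both channels on all 4 arrays. The list for receptor assembly and endplate membrane had 1 of 9 lower (median -0.14), *SYNE1* (-0.80 on the brightest probe, 3 of 3 probes called), which encodes a nuclear envelope protein.

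Outside the muscle receptor, 2 of 3 tested acetylcholine receptor genes were called lower, beside 16.4% of all tested probes. This list held 16 genes, 12 of them with a probe, so the count rests on few of them. *CHRM3*, the M3 muscarinic receptor, was named through its RefSeq gene ID and had a mean of -1.24 ± 0.06 (SD, n = 4) with an adjusted p of 3.25e-05 by limma, and both of its probes were called. *CHRNA3*, a subunit of neuronal nicotinic receptors, was at -0.54 and was not called with treat, normexp (-0.29) or without background subtraction (-0.36). Among 6 tested genes of acetylcholine supply and the nerve terminal, *SLC44A1* (0.58, 3 of 3 probes) and *STX1A* (0.42) were higher and *SLC44A2* (-0.53) and *SYP* (-0.50) lower, with a median of 0.13. *SLC44A1* and *SLC44A2* encode choline transporter-like proteins, *STX1A* syntaxin and *SYP* synaptophysin. Over all tested probes, 12.1% were called higher and 16.4% lower. Several of the calls among these 6 genes depended on the analysis. The *SYP* call was lost without array 1, 2 or 3 and in 6 other alternatives, and the *STX1A* call without array 1 or 2 and in 6 others. The *SLC44A2* call was lost in 5 alternatives, normexp and no background subtraction among them (-0.22 in both). The *SLC44A1* call was lost with treat and with centering on spike-in RNA (0.09).

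Of 12 tested regulators of synaptic genes in muscle, *TCF12* (-0.44), a partner of MyoD family factors, and *MYF6* were called lower, with a list median of -0.14. That share is near the 16.4% of all tested probes called lower, so it is no result about these regulators as a group. *MYF6*, which encodes the regulator MRF4, was at background in the HMB channel on all 4 arrays. With the deposited background correction it was nominally at least 1.18-fold lower, with an adjusted p of 0.00225 by limma. It was not called with normexp (-0.15, adjusted p = 0.0950 by limma) or without background subtraction (-0.22), where it fell by less than that bound. The *TCF12* call was lost with treat, both of those settings, median centering and the GC correction. *MYOG*, which encodes myogenin and is known to activate receptor subunit genes, had a mean of 0.03 ± 0.22 (SD, n = 4). *MYOD1* had a mean of 0.32 on its brighter probe and -0.11 on the other, and neither was called.

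**Figure D4:**
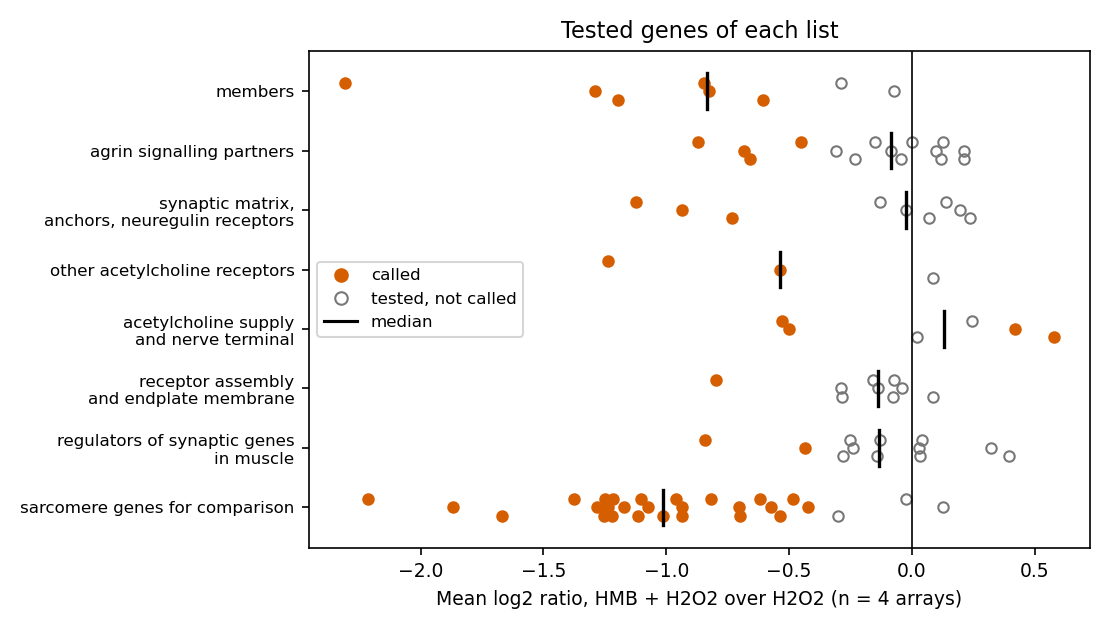
Mean log2 ratio (n = 4 arrays) of each tested gene found by symbol (members) and of each tested gene in 6 lists of partners and 1 list of sarcomere genes, with called genes filled and the list median as a bar. The members' median of -0.84 lies nearer to that of the sarcomere genes (-1.01) than to those of the partner lists.

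Contractile genes moved on the same arrays. Of 29 tested sarcomere genes, 26 were called lower and 0 higher, beside 16.4% and 12.1% of all tested probes, with a median of -1.01 and array medians of -1.07, -1.20, -0.79 and -1.11. The median was -0.96 with *MYH2* at its bound. *MYOT* (-1.87), which encodes myotilin, and *MYH8* (-1.67), the perinatal myosin heavy chain, were among those with the lowest ratios. *MYH2*, an adult fast myosin at background in the HMB channel, was nominally at least 1.53-fold lower with the deposited background correction. Only 1 of its 8 probes was tested, and it passed the filter only through the control channel, where it was high. *MYH2* was not called with normexp (-0.34, adjusted p = 0.0502 by limma). Array 3 had the smallest median fall for the sarcomere genes, as it did for the 8 junction genes.

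Markers of cell types were read on the same arrays. Of 6 tested muscle markers, 4 were called lower, namely *MYH3* (-1.38), *DES* (-1.22), *ACTA1* (-1.10) and *CKM* (-0.93), beside 16.4% of all tested probes. All 4 are also among the sarcomere genes above, so they add no separate observation. The muscle markers outside the sarcomere list, *MYOG* (0.03) and *MYOD1* (0.32 on its brighter probe), did not fall and were not called. The whole muscle list had a summed signal of 165800 to 186600 in the control channel and 63110 to 100400 in the HMB channel. Such sums, here and below, add signals of different probes, called or not, and weigh the brightest most. They do not measure the amount of a cell type. Of 4 tested fibroblast markers, 3 were called higher, *PDGFRA* (1.49), *DCN* (0.77) and *THY1* (0.76), beside 12.1% of all tested probes. *COL3A1* was at 0.06 and not called on the brightest of its 7 probes, of which 3 were called. The sum of the fibroblast list was 182700 to 212100 in control and 209000 to 319800 with HMB. Centering on spike-in RNA ended the calls of *DCN* (0.28) and *THY1* (0.27), and with normexp *PDGFRA* was at 0.47 and still called. The part of cell composition in the junction genes was not tested.

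For cells of nerve, the Schwann cell markers *SOX10* and *NGFR* and the neuron markers *SNAP25* and *STMN2* were at background in both channels on all 4 arrays. Of the other neuron markers with a probe, *SYP* was well above background in both channels on all 4 arrays, and the control channel of *CHAT* and *ELAVL4* was on 2. The summed signal of the 5 neuron markers with a probe was 98.1 to 141 in control and 66.4 to 113 with HMB. Endothelial *PECAM1*, *VWF* and *CDH5* and leukocyte *CD3E* and *ITGAM* were also at background, while *CD68*, a macrophage marker that other cells express too, was called higher (0.88). The leukocyte sum was 3687 to 4434 in control and 4156 to 6203 with HMB.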

How the data were processed

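RNA of HMB-treated (Cy5) and control (Cy3) equine satellite cells was compared on 4 Agilent horse arrays. The log10 ratios and the signal intensities are those deposited by the authors, written by Feature Extraction (version 10.10.1.1 per the file headers) after background subtraction and linear and lowess normalization within each array. Flags for outliers, saturation and signal well above background came from the same deposited files. The authors' table of normalized values gave the same calls as the scanner ratios.

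Here the log10 ratios were turned to log2, control spots and marked spots were left out, and repeated spots of a probe were averaged. Probes needed 1 channel well above background on all 4 arrays and at least 3 ratios. They were tested with limma 3.58.1 in R 4.3.3 (intercept, empirical Bayes, Benjamini-Hochberg over 24669 probes) and called at thresholds of 0.05 for the adjusted p and 1.3 for the FC, as in the study's methods. Where a channel was at background on all arrays, the FC is a nominal bound against the lowest signal well above background. It is no strict limit, because a spot with a higher signal can miss that flag too. Pairs of genes were compared within arrays with an exact sign-flip permutation test. The number of arrays limits the precision.

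Where several probes read a gene, the values are from the brightest one tested. Named were the 10 genes, *LRP4*, *DOK7*, *COLQ* and *PRIMA1*, up to 3 called genes with the largest rise and fall from each list, and cell type markers that were called or at background. *DNAJA3*, *MYOG*, *MYOD1*, *COL3A1*, *CHAT*, *ELAVL4* and the values of *AGRN* outside the symbol search were added after their values were seen. The genes and lists were chosen with earlier results of these arrays known, so they are not independent of them. The tests were tried on simulated data first. Alternatives comprised other tests (the methods' t-test with Benjamini-Hochberg adjustment, treat), weights, background corrections (normexp with an offset of 50, or none), scalings, filters and leaving out each array. Genes without an entry in the files' symbols were looked up through RefSeq gene IDs (assembly TB-T2T), which served for names only. Some cell type markers are not reported here.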

Additional observations from a re-analysis of the deposited data

Results flagged for a closer look

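By Dixon's ratio, none of the tested junction genes had an array that stood apart from the other 3. For 2 muscle markers given beside them, the gap of array 3 to the nearest other array was large against the range of all 4 arrays, above Dixon's critical value for 4 samples. The gap was 0.885 of the range for *CKM*, whose log2 ratios were -1.07, -1.02, -0.61 and -1.04. It was 0.860 for *DES*, with -1.36, -1.32, -0.79 and -1.40. In both the fall was smallest on array 3. Chance flags about 1 in 20 such groups.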

How the results depend on the processing

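The number of junction genes called was 6 in most analyses, 5 with treat, normexp or no background subtraction, 7 with median centering or without replicate 3, 8 with centering on spike-in RNA, and 4 of 6 tested when both channels had to be well above background. Their median was -0.53 with normexp, -0.68 without background subtraction, -1.32 with spike-in centering and -0.73 with both channels well above background. The 16 partner genes called became 8 with treat, 6 with normexp, 7 without background subtraction and 42 with spike-in centering. On the spike-in scale *DOK7* (-0.37) and *STX1A* (-0.071) turned negative. *ACHE* minus *BCHE* turned to -0.28 with normexp and -0.14 without background subtraction. *CHRNA1* minus *CHRNB1* moved to -0.65 with normexp and -0.49 without background subtraction, turned to 0.20 with median centering and lay between -0.096 and 0.026 with 1 array left out. The cause was not tested. Of all calls, 2822 with treat to 18570 with spike-in centering, 42.5% were higher in the reported analysis, 54.6% with treat, 55% with normexp, 60.1% without background subtraction, 55.6% with the GC correction and 6.72% with spike-in centering. No paired analysis was possible because the pairing of the 2 channels of an array is already in the reported ratios and no further replicate number is left to block on. Low signal over background limits the ratios of dim probes, *BCHE*, *CHRNB1*, *MUSK* and *AGRN* among them.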
